A study of Mus musculus with 10 samples.

Results

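The glutathione transferases and the antioxidant genes served by the transcription factor NRF2 were compared in livers of mice bearing Tcell low or Tcell high pancreatic tumours. The set holds 35 genes, all found by symbol among the 24972 genes of the deposited table. 21 of them are glutathione transferases, 11 make, supply or recycle glutathione or are NRF2-linked redox enzymes, 2 are NRF2 itself (Nfe2l2) and its inhibitor Keap1, and 1 is the epoxide hydrolase Ephx1. 33 of the 35 averaged 10 scaled counts or more across libraries and were tested. The exceptions were Mgst3 and Slc7a11.

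The RNA libraries came from livers labelled WT in genotype, 4 of them from mice carrying the PDAC (pancreatic ductal adenocarcinoma) line 6419c1, called Tcell low, and 6 from mice carrying the line 6555c3, called Tcell high. Both lines were derived from the KPC mouse, a genetic model of pancreatic cancer. The labels used here give no age, and no untreated or tumour-free liver was analysed here. Each group is 1 line, so line and T cell class cannot be told apart, and the labels do not say that each library is its own mouse. The spread behind every p-value is that among libraries, and some of it may be technical. A scaled count is a value of the deposited table, which the authors scaled to a common depth. The library kit reads 1 tag near the 3′ end of each transcript, so scaled counts of different genes were set side by side without division by length. In bulk liver, fewer cells of a type and less RNA per cell cannot be told apart.

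Glutathione transferases join the tripeptide glutathione to reactive, often electrophilic molecules, which are then exported, and the liver is a major site of this reaction. Glutathione is made by glutamate-cysteine ligase and glutathione synthetase and is returned to its reduced form by glutathione reductase. NRF2 is held by KEAP1 and degraded in resting cells. When electrophiles or oxidants modify KEAP1, NRF2 accumulates and binds antioxidant response elements near many of the genes described here.

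Promoters were read to show where the core of that element lies in these genes. The core searched was TGACNNNGC, or GCNNNGTCA on the other strand, in the 250 bases before each RefSeq start (GRCm38.p6). It occurred in 3338 of 32851 promoters in that table (10.2%). Of 40 promoters of 30 members, 8 held it (20%), those of Gsta3, Gstm5, Gstm7, Mgst1, Gclm, Txnrd1, Prdx1 and Nfe2l2. A match is a description of these letters and not a binding site. Variants of this core were not searched, so a promoter outside this list may still hold a form of the element. The 4 promoters printed belong to a transferase and a peroxiredoxin whose RNA was lower, a ligase subunit that did not pass the test, and NRF2 itself, which was higher. Capitals mark the match, and in Prdx1 it overlaps TGAGTCA, the AP-1 motif.
Gsta3, chr1:21240335-21240584, plus strand: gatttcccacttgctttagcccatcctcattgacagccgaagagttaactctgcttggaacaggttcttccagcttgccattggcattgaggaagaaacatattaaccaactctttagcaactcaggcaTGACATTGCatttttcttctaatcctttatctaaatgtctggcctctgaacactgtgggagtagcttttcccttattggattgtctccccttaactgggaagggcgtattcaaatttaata
Prdx1, chr4:116685349-116685598, plus strand: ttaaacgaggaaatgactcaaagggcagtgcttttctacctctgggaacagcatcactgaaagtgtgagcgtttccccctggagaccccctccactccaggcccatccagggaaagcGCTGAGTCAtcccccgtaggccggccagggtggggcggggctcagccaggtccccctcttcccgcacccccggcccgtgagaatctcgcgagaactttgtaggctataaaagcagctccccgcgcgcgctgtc
Gclm, chr3:122245307-122245556, plus strand: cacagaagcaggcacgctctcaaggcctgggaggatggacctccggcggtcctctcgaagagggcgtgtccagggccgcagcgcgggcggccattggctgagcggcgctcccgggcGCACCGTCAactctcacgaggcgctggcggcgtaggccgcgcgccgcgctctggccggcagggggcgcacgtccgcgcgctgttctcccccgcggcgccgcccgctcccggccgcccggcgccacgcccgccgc
Nfe2l2, chr2:75704664-75704913, minus strand: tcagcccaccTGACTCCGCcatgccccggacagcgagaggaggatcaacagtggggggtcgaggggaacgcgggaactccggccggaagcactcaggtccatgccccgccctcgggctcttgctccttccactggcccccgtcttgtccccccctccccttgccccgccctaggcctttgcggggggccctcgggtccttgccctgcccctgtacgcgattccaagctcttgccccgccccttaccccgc
No promoter sequence is given here for Gclc, Gsr, Gsta4, Gstt2 and Prdx6. Relative to the start site, the matches began at position -121 in Gsta3, -133 in Prdx1, -134 in Gclm and -240 in Nfe2l2. Matches were thus found in genes that fell, in a gene that rose and in genes that did not pass the test.

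Scaled totals ran from 7000660 to 8257370 per library. Of 11110 genes tested, 599 were higher (5.39%) and 821 lower (7.39%) in Tcell low livers at an adjusted p below 0.05 (limma, Benjamini-Hochberg). Rescaling to equal totals shifted the median of all genes by -0.12 on the log2 scale and gave 421 higher and 1068 lower. The number of called genes was 109 without Tcell low 2, 156 without Tcell low 4, 508 without Tcell low 3 and 3633 without Tcell low 1. It was 433, 380, 403 and 446 without Tcell high 1, 3, 5 or 6 in turn, and 2280 without Tcell high 2. Tcell high 2 and 4 both lay below the other 4 Tcell high libraries in 13 of the 33 members tested (39.4%), against 21.8% of all genes tested, and both above them in 6 (18.2%), against 20.9%. With a covariate for the set of the other 4, which sets Tcell low livers against Tcell high 2 and 4 alone, limma called 0 genes, with 1788 at an unadjusted p below 0.05, where the fit lacking the covariate had 3830. Under that covariate 0 members were called, and 17 members had an unadjusted p below 0.05. All 18 members called without it kept their sign, but so did all 1420 genes called without it. Both member counts include Gsta1, which was listed at 0 in every Tcell low library, so its sign was fixed. Alb, the plasma albumin gene, averaged 183622 ± 45692 scaled counts in Tcell low and 200995 ± 84559 in Tcell high livers (SD, n = 4 and 6), so this liver transcript was abundant in both groups.

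Transferase RNA was lower in Tcell low livers. 20 transferases were tested. One of them, Gsta1, reached the minimum mean through Tcell high libraries alone, so it could only have been called lower and is kept out of the counts given next. Of the 19 others, 11 fell (57.9%), 0 rose (limma, 0 also at an unadjusted p below 0.05), and 8 did not pass, against 7.39% of all genes falling, or 7.28% of the 10499 genes that averaged at least 10 in both groups. In 8 of the 19 every Tcell low library lay below every Tcell high library, which was true of 4.02% of all genes. All 19 fold changes were below 0, with a median log2 fold change of -1.64 beside 0.0032 for all genes tested. The glutathione synthesis and redox group was less uniform in sign. Of its 10 tested genes 4 fell (40%), 0 rose (limma, 0 also at an unadjusted p below 0.05) and 6 did not pass, with a median log2 fold change of -0.48. These counts moved with single libraries. Gsta1 included, 12 transferases were called in all. Without Tcell low 2 the test called 3 transferases and 0 synthesis and redox genes, and without Tcell low 4 it called 7 and 0. Without Tcell low 3, 11 transferases and 2 of the synthesis and redox genes were called, and without Tcell low 1, 15 and 6. Those 6 include Gss, which was called higher. Leaving out Tcell high 1, 3, 5 or 6 in turn left 8 transferases each time and 1 synthesis or redox gene. With the library set covariate the medians were -0.90 for the 19 transferases and -0.60 for the synthesis and redox group. The difference between the groups of genes was not tested.

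**Figure D1:**
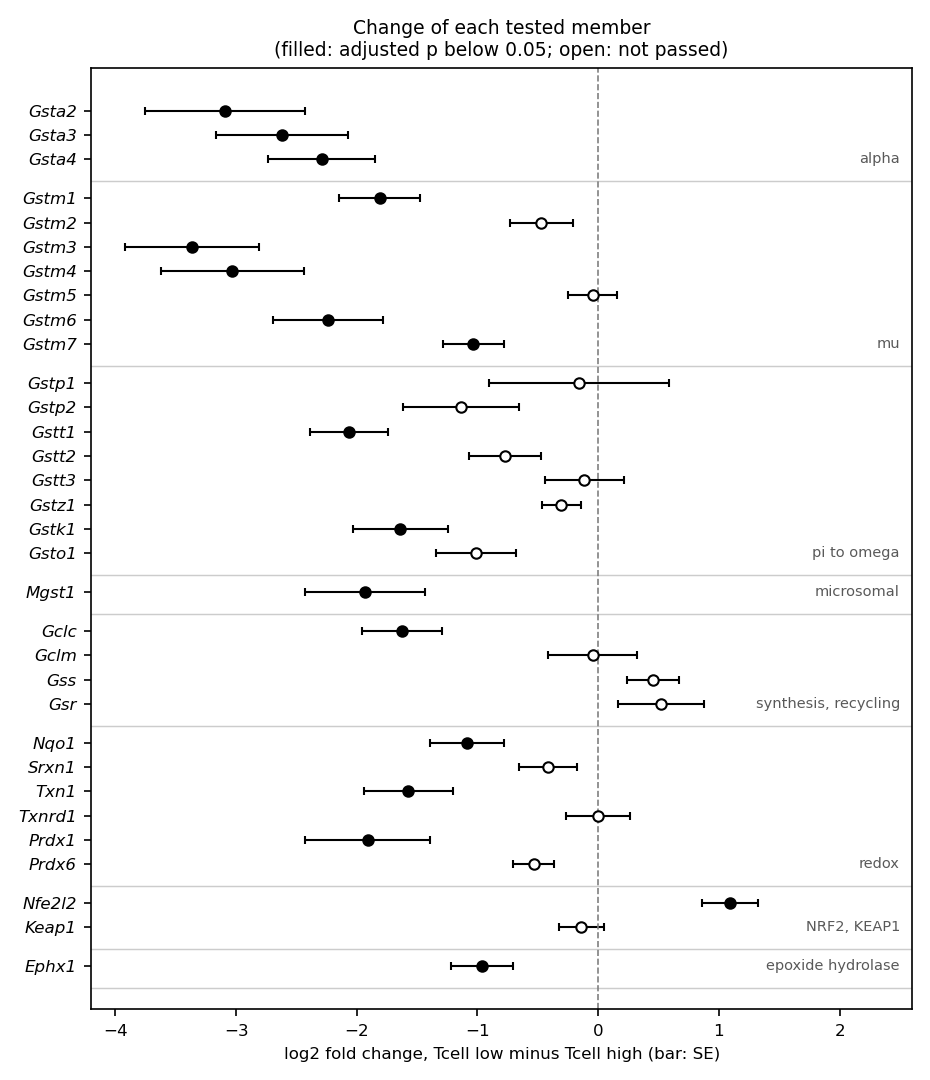
Log2 fold change (Tcell low minus Tcell high, with its standard error) of 32 tested members by class, with filled points for adjusted p below 0.05. Gsta1, listed at 0 in every Tcell low library, is left out. The 19 transferases drawn lie below 0, while Gss, Gsr and Nfe2l2 lie above 0 and of these Nfe2l2 alone passed the test.

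The level varied among Tcell low livers. Summed over the transferases, scaled counts were 30765, 21420.0, 25315 and 13749.8 in Tcell low libraries 1 to 4, against a lowest of 40543, a median of 51163 and a highest of 70694 in the 6 Tcell high libraries. The highest Tcell low sum was thus below the lowest Tcell high sum. This was 0.296% ± 0.112 of all scaled counts in Tcell low livers and 0.718% ± 0.135 in Tcell high livers (SD, n = 4 and 6). The median log2 difference of the transferases from the Tcell high mean was -0.68, -2.01, -1.37 and -2.38 in Tcell low libraries 1 to 4, against -0.23 to 0.35 in Tcell high libraries. Tcell low 1 was the least changed and Tcell low 4 the most. Of the 17 members called lower, Tcell low 1 held the highest value of its group in 15, and Tcell low 4 the lowest in 12. The 15 include Gsta1, for which the Tcell low libraries were tied at 0. Among Tcell high livers, Tcell high 5 was highest in 12 of the 17 and Tcell high 2 lowest in 10. Such ranks were not counted over all genes called lower, so they may not be particular to these members. For the synthesis and redox group, the same medians were -0.19, -0.58, -0.54 and -1.02 in Tcell low libraries 1 to 4, and -0.15 to 0.29 in Tcell high libraries.

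The alpha class, which acts on lipid peroxidation products as well as drugs, had 3 of 3 genes lower beside Gsta1. Gsta3 was its most abundant member by far. It had 4871, 693, 2554 and 588 scaled counts in Tcell low libraries 1 to 4, against a lowest of 4595, a median of 10207 and a highest of 16768 in the Tcell high libraries. Tcell low 1, at the upper end of its group, overlapped Tcell high 2, and the other Tcell low libraries were below the Tcell high range. Gsta3 fell (log2 fold change -2.62, SE 0.55, adjusted p = 0.0179), a call lost without Tcell low 2 or 4 in turn (adjusted p 0.0655 to 0.0712). Gsta4, the alpha enzyme best known for the lipid aldehyde 4-hydroxynonenal, had 363, 67.1, 191 and 47.9 scaled counts in Tcell low libraries 1 to 4, against a lowest of 533, a median of 592 and a highest of 701 in the Tcell high libraries. The groups did not overlap. Gsta4 fell (log2 fold change -2.29, SE 0.44, adjusted p = 0.0141), a call lost without Tcell low 2 (adjusted p = 0.0591).

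Gsta1 and Gsta2 were the low-abundance alpha genes. Gsta1 (chr9:78230656-78242684, plus strand) was listed at 0 in all 4 Tcell low libraries and in Tcell high 2, and at 32.5 to 48.8 scaled counts in the other Tcell high libraries. It met the minimum mean through Tcell high libraries alone, so its call (adjusted p = 0.0206) could go in 1 direction only and is given as a description, with no fold against values of 0. The call was lost without Tcell low 2 or 4 or Tcell high 1, 3, 5 or 6 in turn (adjusted p 0.0523 to 0.0686). Gsta2 (chr9:78331018-78355788, minus strand) had 66.3, 78.1, 89.9 and 6.46 scaled counts in Tcell low libraries 1 to 4, against a lowest of 132, a median of 446 and a highest of 725 in the Tcell high libraries. The groups did not overlap, and Tcell low 4 was the lowest library. Gsta2 fell (log2 fold change -3.09, SE 0.66, adjusted p = 0.0188), a call lost without Tcell low 2 (adjusted p = 0.0503). Both genes are uncertain as single genes, because 89.8% of the 50-base words at the 3′ end of Gsta1, and 62.5% at that of Gsta2, also occur in another gene, chiefly Gm3776 for Gsta1 and Gsta1 for Gsta2. With the library set covariate the log2 fold changes were -2.34 for Gsta2, -1.83 for Gsta3 and -2.16 for Gsta4, and none of these passed.

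**Figure D2:**
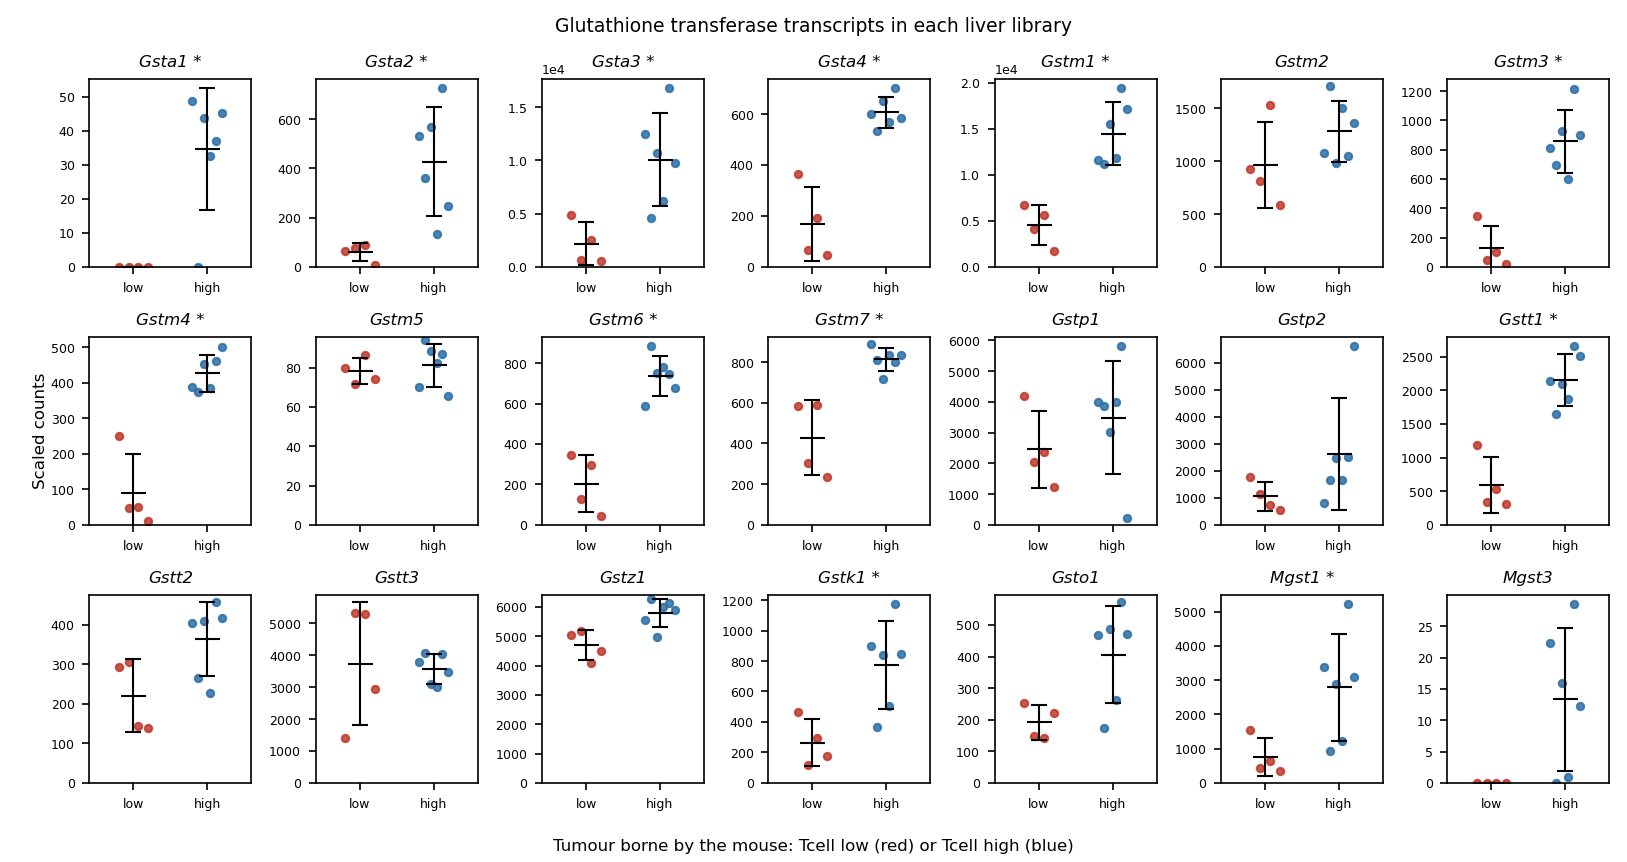
Scaled counts of the 21 transferases per library, 1 panel each with its own axis from 0, Tcell low points (n = 4) left of Tcell high points (n = 6), with bars for mean and SD and a star for adjusted p below 0.05. The 12 starred genes are lower in Tcell low livers, though among them the groups overlap for Gsta1, Gsta3, Gstk1 and Mgst1. The groups also overlap for every gene without a star, Gstm5 and Gstt3 included. SD bars are cut at 0.

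The mu class lies in 1 cluster on chromosome 3, and 5 of its 7 genes fell. The 7 genes run within 149074 bases (chr3:107895821-108044894, mm10), in the order Gstm5, Gstm7, Gstm6, Gstm3, Gstm2, Gstm1 and Gstm4, with Gstm5 on the plus strand and the others on the minus strand. Gstm1, the most abundant transferase gene in Tcell high livers by mean, had 6774, 4118, 5600.3 and 1715 scaled counts in Tcell low libraries 1 to 4, against a lowest of 11218, a median of 13721 and a highest of 19487 in the Tcell high libraries. The groups did not overlap. Gstm1 fell (log2 fold change -1.81, SE 0.34, adjusted p = 0.0125) and stayed called with any 1 library left out. At its 3′ end 24.1% of words also occur in another gene, chiefly Gstm3, so part of its signal is uncertain.

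Gstm3 showed one of the steeper changes of the class. It had 348, 50.2, 105 and 22.0 scaled counts in Tcell low libraries 1 to 4, against a lowest of 601, a median of 856 and a highest of 1217 in the Tcell high libraries, with no overlap. It fell (log2 fold change -3.37, SE 0.56, adjusted p = 0.00916), again with any 1 library left out. Gstm4 had 251, 48.7, 51.1 and 10.2 scaled counts in Tcell low libraries 1 to 4, against a lowest of 373, a median of 421 and a highest of 502 in the Tcell high libraries. Tcell low 4 was far below the rest and no Tcell low library reached the Tcell high range. Gstm4 fell (log2 fold change -3.03, SE 0.59, adjusted p = 0.0143), a call lost without Tcell low 2 (adjusted p = 0.0565). Gstm6 had 343, 128, 298 and 42.8 scaled counts in Tcell low libraries 1 to 4, against a lowest of 589.5, a median of 747 and a highest of 884 in the Tcell high libraries, also with no overlap, and fell (log2 fold change -2.24, SE 0.46, adjusted p = 0.0169), a call lost without Tcell low 2 (adjusted p = 0.0656). Gstm7 had 583, 306, 587 and 235 scaled counts in Tcell low libraries 1 to 4, against a lowest of 718, a median of 821 and a highest of 888 in the Tcell high libraries. Tcell low 2 and 4 were the lowest, and the groups did not overlap. Gstm7 fell by the smallest amount of the 5 (log2 fold change -1.03, SE 0.26, adjusted p = 0.0267), with its call lost without Tcell low 2 or 4 or Tcell high 1, 3, 5 or 6 in turn (adjusted p 0.053 to 0.0968).

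Between these genes lay Gstm2, which did not pass. Gstm2 had 926, 811, 1533 and 584 scaled counts in Tcell low libraries 1 to 4, against a lowest of 986, a median of 1220.3 and a highest of 1716 in the Tcell high libraries, so that Tcell low 3 was within the upper part of the Tcell high range (log2 fold change -0.47, SE 0.26, adjusted p = 0.217). Gstm5, at the plus-strand end of the cluster, had 80.0, 71.9, 86.7 and 74.3 scaled counts in Tcell low libraries 1 to 4, against a lowest of 65.7, a median of 84.5 and a highest of 93.9 in the Tcell high libraries. Its groups overlapped (log2 fold change -0.05, SE 0.20, adjusted p = 0.889). With the library set covariate the log2 fold changes were -1.51 for Gstm1, -2.99 for Gstm3, -2.87 for Gstm4, -2.42 for Gstm6 and -1.05 for Gstm7. None of the 5 passed in that fit.

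**Figure D3:**
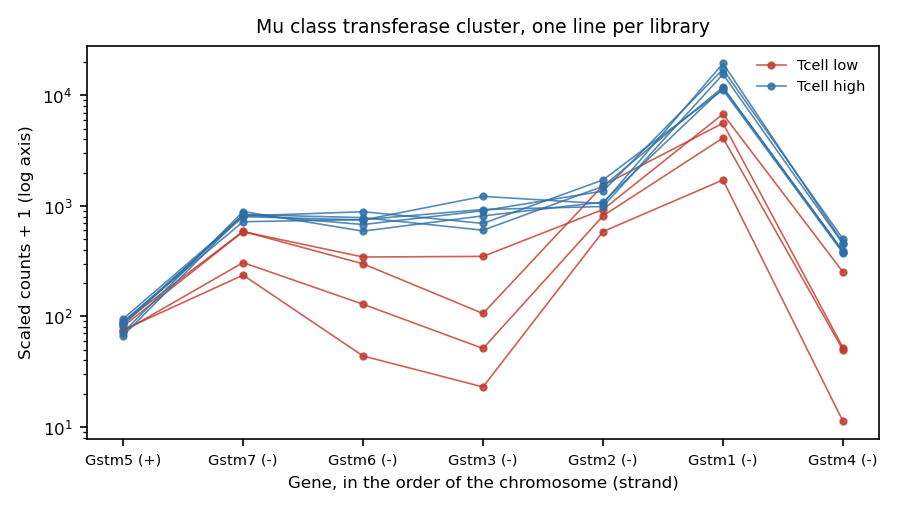
Scaled counts plus 1 (log axis) of the 7 mu class genes in their order on chromosome 3, 1 line per library, Tcell low in red and Tcell high in blue. The lines separate at Gstm7, Gstm6, Gstm3, Gstm1 and Gstm4 and run together at Gstm5, where Tcell low libraries hold 71.9 to 86.7 and Tcell high libraries 65.7 to 93.9.

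The pi class was split between a pair of neighbouring copies whose reads cannot be fully separated. Gstp1 (chr19:4035407-4037985, minus strand) and Gstp2 (chr19:4040285-4046023, minus strand) share 3′ sequence, with 43.6% of the words of Gstp1 and 64.7% of those of Gstp2 found in another gene. Gstp1 had 4177, 2041, 2366 and 1221 scaled counts in Tcell low libraries 1 to 4, against a lowest of 219, a median of 3930.2 and a highest of 5809 in the Tcell high libraries. The lowest value of all, 219, was in Tcell high 6, where Gstp2 had its highest, 6633. Gstp1 (log2 fold change -0.16, SE 0.74, adjusted p = 0.897) and Gstp2 (log2 fold change -1.14, SE 0.48, adjusted p = 0.116) did not pass. Without Tcell low 1, Gstp2 passed (adjusted p = 0.0423).

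Gstp2 itself had 1784, 1138, 753 and 569 scaled counts in Tcell low libraries 1 to 4, against a lowest of 806, a median of 2068 and a highest of 6633 in the Tcell high libraries. The sum of the pair, chosen after the values were seen, was 5961, 3179, 3119 and 1789.9 in Tcell low libraries 1 to 4, against a lowest of 4799, a median of 5585 and a highest of 8342 in the Tcell high libraries. Tcell low 1 lay inside the Tcell high range and the other Tcell low libraries below it. The sum averaged 3512 ± 1754 in Tcell low and 6107 ± 1281 in Tcell high livers (SD, n = 4 and 6), a log2 difference of -0.90 (p = 0.0238, exact two-sided permutation test, smallest possible 0.00952). Gstp1 made up 64.2% to 75.8% of the pair in Tcell low libraries. In Tcell high libraries it made up 54.9% to 83.2%, except 3.19% in Tcell high 6.

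**Figure D4:**
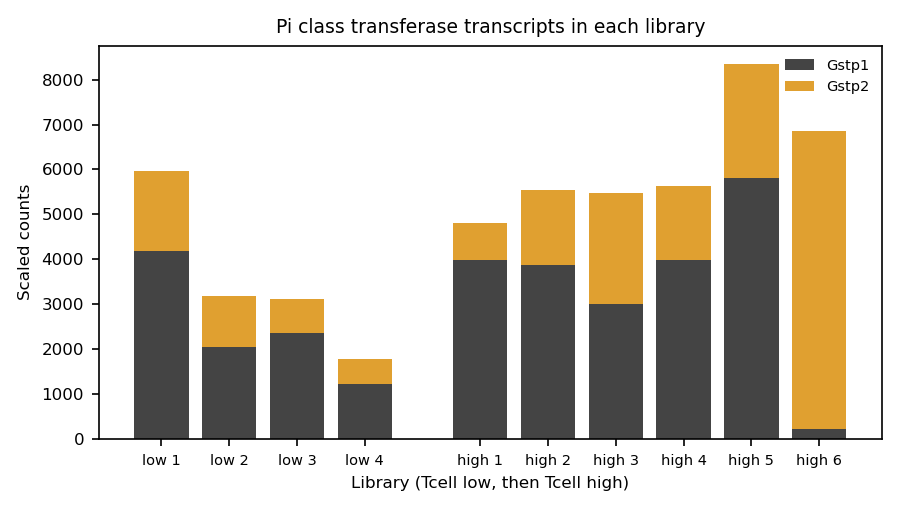
Scaled counts of Gstp1 and Gstp2 stacked per library, Tcell low libraries left of Tcell high libraries. The sum is lowest in Tcell low 4 (1789.9) and highest in Tcell high 5 (8342), and Tcell high 6 is almost wholly Gstp2.

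Of the theta, zeta, kappa and omega genes, Gstt1 and Gstk1 fell and the others did not pass. Gstt1 (chr10:75783813-75798584, minus strand), which acts on small halogenated compounds, had 1190.0, 341, 529 and 307 scaled counts in Tcell low libraries 1 to 4, against a lowest of 1644, a median of 2116 and a highest of 2660.0 in the Tcell high libraries. The groups did not overlap. Gstt1 fell (log2 fold change -2.07, SE 0.33, adjusted p = 0.00876) with any 1 library left out, and had the lowest adjusted p of the members. Gstk1, a transferase of mitochondria and peroxisomes, had 469, 116, 292 and 179 scaled counts in Tcell low libraries 1 to 4, against a lowest of 370.0, a median of 844 and a highest of 1177 in the Tcell high libraries. Tcell low 1 overlapped Tcell high 2 and the other Tcell low libraries were below the Tcell high range. Gstk1 fell (log2 fold change -1.64, SE 0.39, adjusted p = 0.0246), but the call was lost without Tcell low 2 or 4 or Tcell high 1, 3, 5 or 6 in turn (adjusted p 0.0551 to 0.0909). With the library set covariate the log2 fold change was -1.79 for Gstt1 and -0.90 for Gstk1, and neither passed.

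Gstt3, next to Gstt1 in the theta class, had 1397, 5334, 5277 and 2931 scaled counts in Tcell low libraries 1 to 4, against a lowest of 2997, a median of 3623 and a highest of 4072 in the Tcell high libraries. Tcell low libraries held both the lowest and the highest value, and the test was not passed (log2 fold change -0.11, SE 0.33, adjusted p = 0.826). At its 3′ end 20.4% of words also occur in another gene. Gstz1, which serves tyrosine breakdown as maleylacetoacetate isomerase, had 5036, 5193, 4075 and 4507 scaled counts in Tcell low libraries 1 to 4, against a lowest of 4974, a median of 5957 and a highest of 6264 in the Tcell high libraries (log2 fold change -0.31, SE 0.16, adjusted p = 0.191). The ranges overlapped at Tcell low 1 and 2. Gstt2 had 293, 307, 143 and 138 scaled counts in Tcell low libraries 1 to 4, against a lowest of 227, a median of 407 and a highest of 457 in the Tcell high libraries. It did not pass (log2 fold change -0.77, SE 0.30, adjusted p = 0.0912) except without Tcell low 1 (adjusted p = 0.0338). Gsto1, which reduces dehydroascorbate and arsenic compounds, had 254, 149, 141 and 221 scaled counts in Tcell low libraries 1 to 4, against a lowest of 173, a median of 470.0 and a highest of 571 in the Tcell high libraries (log2 fold change -1.01, SE 0.33, adjusted p = 0.059). It passed without Tcell low 1 (adjusted p = 0.0253) or without Tcell high 2 (adjusted p = 0.0161).

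Mgst1, a membrane-bound transferase of the endoplasmic reticulum and outer mitochondrial membrane, fell. It had 1559.5, 429, 644 and 350.5 scaled counts in Tcell low libraries 1 to 4, against a lowest of 945, a median of 2991 and a highest of 5221 in the Tcell high libraries. Tcell low 1 lay above the lower Tcell high libraries, 2 and 4. Its log2 fold change was -1.93 (SE 0.50, adjusted p = 0.0305) and -0.78 with the library set covariate, where it was not called. The call was also lost without Tcell low 2, 3 or 4 or Tcell high 1, 3, 5 or 6 in turn (adjusted p 0.0629 to 0.106). Mgst3, the other microsomal member, was not tested. It was listed at 0 in all 4 Tcell low libraries and in Tcell high 2, and reached 28.5 in Tcell high 5.

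The make-up of the transferase RNA can be given as shares. Of the transferase sum in each library, Gstz1 averaged 22.4% ± 7.9 in Tcell low and 11.6% ± 2.71 in Tcell high livers (SD, n = 4 and 6). Gstt3 averaged 17.9% ± 9.09 in Tcell low and 7.1% ± 1.6 in Tcell high livers, but its share of 4.54% in Tcell low 1 was below the Tcell high range of 5.71% to 10.0%. Neither gene passed the test of its level. The share of Gsta3 was 8.36% ± 5.82 in Tcell low and 18.8% ± 5.2 in Tcell high livers. Gstm1 held 19.0% ± 4.53 in Tcell low and 28.0% ± 2.73 in Tcell high livers, with ranges of 12.5% to 22.1% in Tcell low and 23.1% to 30.9% in Tcell high libraries. Shares of 1 sum depend on each other and were not tested.

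Of the ligase that makes glutathione, the catalytic subunit fell and the modifier subunit did not pass. Gclc (chr9:77754535-77794485, plus strand), the catalytic subunit of glutamate-cysteine ligase, had 1214, 345, 330.5 and 381 scaled counts in Tcell low libraries 1 to 4, against a lowest of 1041, a median of 1520.4 and a highest of 1903 in the Tcell high libraries. Tcell low 1 lay within the Tcell high range, and the other Tcell low libraries lay below it. Gclc fell (log2 fold change -1.62, SE 0.33, adjusted p = 0.017), a call lost without Tcell low 2 or 4 in turn (adjusted p 0.0643 to 0.0683). Gclm, the modifier subunit, had 2120.5, 1250.1, 2732 and 647 scaled counts in Tcell low libraries 1 to 4, against a lowest of 1100.1, a median of 1414 and a highest of 2496 in the Tcell high libraries. Tcell low 3 was the highest library and Tcell low 4 the lowest, and the test was not passed (log2 fold change -0.05, SE 0.37, adjusted p = 0.942). Whether Gclc and Gclm differed from each other was not tested.

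The later enzymes of the cycle did not pass the test. Gss, glutathione synthetase, had 244, 403, 300.0 and 396 scaled counts in Tcell low libraries 1 to 4, against a lowest of 197, a median of 224 and a highest of 314 in the Tcell high libraries (log2 fold change 0.45, SE 0.22, adjusted p = 0.155), and passed as higher without Tcell low 1 (adjusted p = 0.049). Gsr, glutathione reductase, had 99.0, 162, 194 and 80.5 scaled counts in Tcell low libraries 1 to 4, against a lowest of 50.7, a median of 95.4 and a highest of 167 in the Tcell high libraries (log2 fold change 0.52, SE 0.36, adjusted p = 0.313). Its groups overlapped, and with the library set covariate its fold change was -0.08. Slc7a11, the cystine importer, was listed at 0 in 3 Tcell low libraries and at 1.66 in Tcell low 4, and at 0.85 in Tcell high 1 and 1.03 in Tcell high 4, with 0 in the other 4 Tcell high libraries.

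**Figure D5:**
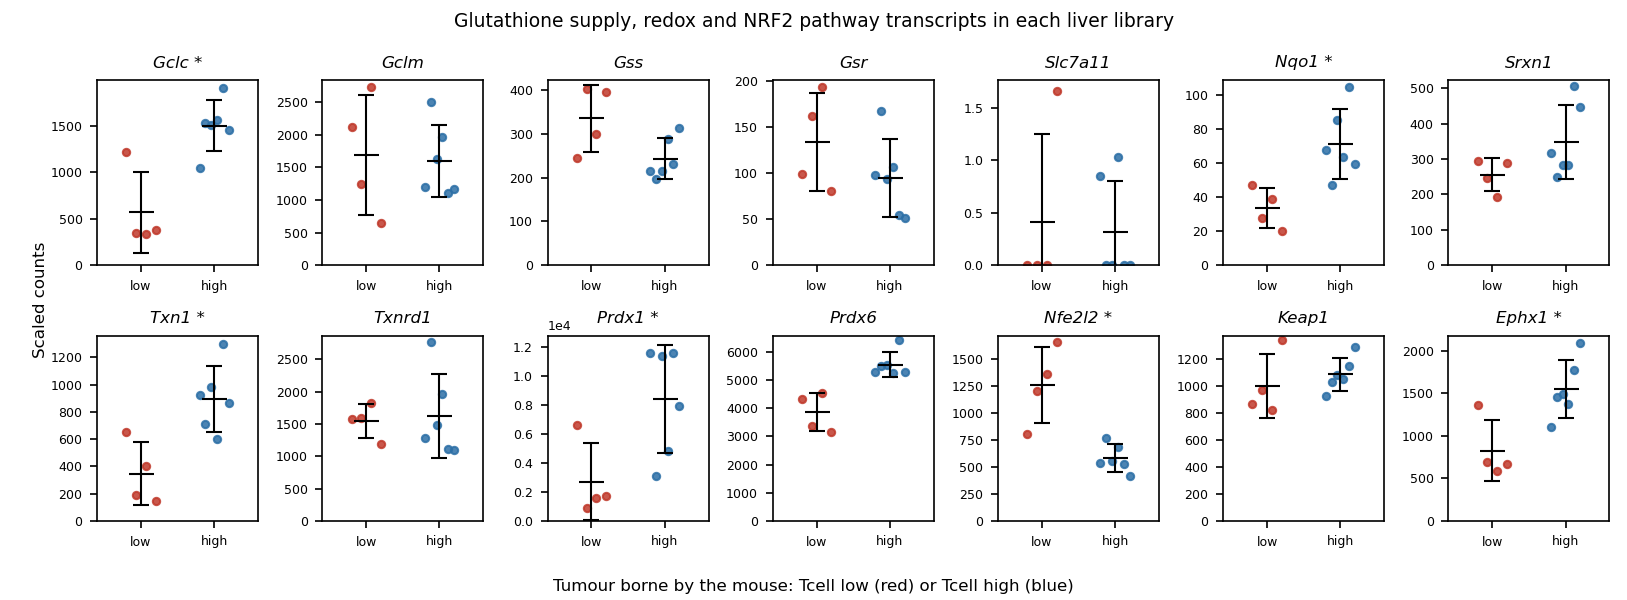
Scaled counts per library of the 11 synthesis and redox genes with Nfe2l2, Keap1 and Ephx1, 1 panel each with its own axis from 0, Tcell low points (n = 4) left of Tcell high points (n = 6), with bars for mean and SD and a star for adjusted p below 0.05. Nfe2l2 is the starred gene that is higher in Tcell low livers.

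Among the redox enzymes, 3 of 6 fell, namely Prdx1, Txn1 and Nqo1. Prdx1 (chr4:116685544-116700822, plus strand), a peroxiredoxin that reduces hydrogen peroxide, had 6647, 871, 1599 and 1757 scaled counts in Tcell low libraries 1 to 4, against a lowest of 3129.8, a median of 9704 and a highest of 11639 in the Tcell high libraries. Tcell low 1 overlapped Tcell high 2 and 4, while the other Tcell low libraries were below the Tcell high range. Prdx1 fell (log2 fold change -1.91, SE 0.52, adjusted p = 0.0349), but not with the library set covariate (-0.95) and not without Tcell low 2, 3 or 4 or Tcell high 1, 3, 5 or 6 in turn (adjusted p 0.0692 to 0.125). Txn1, the thioredoxin that returns oxidised Prdx1 to its active form, had 651, 191, 404 and 145 scaled counts in Tcell low libraries 1 to 4, against a lowest of 599, a median of 894 and a highest of 1299 in the Tcell high libraries. Tcell low 1 exceeded Tcell high 4. Txn1 fell (log2 fold change -1.57, SE 0.37, adjusted p = 0.024), a call lost without Tcell low 2 or 4 or Tcell high 1, 3, 5 or 6 in turn (adjusted p 0.052 to 0.0913) and with the covariate (-1.16).

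Nqo1, a quinone reductase often used as a readout of NRF2, had 47.2, 27.8, 39.2 and 20.3 scaled counts in Tcell low libraries 1 to 4, against a lowest of 47.4, a median of 65.9 and a highest of 105 in the Tcell high libraries. No Tcell low library exceeded the lowest Tcell high library, Tcell high 2. Nqo1 fell (log2 fold change -1.09, SE 0.30, adjusted p = 0.0387), a call lost without Tcell low 2, 3 or 4 or Tcell high 1, 3, 4, 5 or 6 in turn (adjusted p 0.0536 to 0.115). The covariate gave -0.76. Txnrd1, the reductase that recharges thioredoxin, averaged 1546 ± 262 scaled counts in Tcell low and 1620.2 ± 649.9 in Tcell high livers (SD, n = 4 and 6) and did not pass. Srxn1, the sulfiredoxin that rescues overoxidised peroxiredoxins, had 295, 245, 194 and 288 scaled counts in Tcell low libraries 1 to 4, against a lowest of 250.3, a median of 302 and a highest of 508 in the Tcell high libraries (log2 fold change -0.42, SE 0.24, adjusted p = 0.23). Prdx6, a peroxiredoxin that uses glutathione, had 4338, 3383, 4533 and 3169 scaled counts in Tcell low libraries 1 to 4, against a lowest of 5247, a median of 5389 and a highest of 6406 in the Tcell high libraries. Its groups did not overlap, but the adjusted p was above the threshold (log2 fold change -0.54, SE 0.17, adjusted p = 0.0537) except without Tcell low 1 (adjusted p = 0.0209).

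Nfe2l2 moved the other way and was the 1 member called higher (5.39% of all genes were). Nfe2l2 (chr2:75675513-75704641, minus strand), which encodes NRF2, had 808, 1205, 1359 and 1654 scaled counts in Tcell low libraries 1 to 4, against a lowest of 413, a median of 544 and a highest of 772 in the Tcell high libraries. Every Tcell low library was above every Tcell high library, as in 3.37% of all genes. Tcell low 1, which held the highest value of its group for most members that fell, had the lowest Nfe2l2 of its group, and Tcell low 4 the highest. Nfe2l2 rose (log2 fold change 1.09, SE 0.23, adjusted p = 0.0191), a call lost without Tcell low 2 or 4 in turn (adjusted p 0.0659 to 0.0668) and with the covariate (0.74). Keap1, which binds NRF2 for degradation, had 863, 972, 818 and 1341 scaled counts in Tcell low libraries 1 to 4, against a lowest of 925, a median of 1063 and a highest of 1289 in the Tcell high libraries (log2 fold change -0.14, SE 0.19, adjusted p = 0.611). These are RNA levels, and NRF2 protein was not measured here.

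Ephx1, the microsomal epoxide hydrolase that opens reactive epoxides, had 1366, 693, 587 and 668 scaled counts in Tcell low libraries 1 to 4, against a lowest of 1100.3, a median of 1479.7 and a highest of 2098 in the Tcell high libraries. Tcell low 1 overlapped the Tcell high range and the other Tcell low libraries were below it. Ephx1 fell (log2 fold change -0.96, SE 0.25, adjusted p = 0.0329), a call lost without Tcell low 2, 3 or 4 or Tcell high 3, 5 or 6 in turn (adjusted p 0.0659 to 0.106). The covariate gave -0.86.

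The other glutathione genes were mixed. Of 28 that averaged at least 10 scaled counts in both groups, 1 rose (3.57%), 5 fell (17.9%) and 22 did not pass. Their median log2 fold change was -0.20. Among all genes with that mean in both groups, 5.13% rose and 7.28% fell. Gpx3, the secreted glutathione peroxidase of plasma, averaged 604 ± 368 scaled counts in Tcell low and 65.0 ± 20.4 in Tcell high livers (SD, n = 4 and 6) and rose (log2 fold change 2.88, SE 0.53, adjusted p = 0.012). Gpx1, the abundant cytosolic glutathione peroxidase, averaged 7607 ± 4959 scaled counts in Tcell low and 23220.4 ± 5680.2 in Tcell high livers (SD, n = 4 and 6) and fell (log2 fold change -1.77, SE 0.33, adjusted p = 0.0135). Dpep1, a dipeptidase that acts in the breakdown of glutathione conjugates, averaged 25.8 ± 13.5 scaled counts in Tcell low and 3.88 ± 0.82 in Tcell high livers (SD, n = 4 and 6). It was called higher (log2 fold change 2.31, SE 0.50, adjusted p = 0.0192) but met the minimum mean through Tcell low libraries alone, which left no room for a call in the other direction. Hagh, the glyoxalase that frees glutathione, fell (log2 fold change -1.76, SE 0.39, adjusted p = 0.0204). With the library set covariate, where 0 genes were called, the log2 fold changes were 2.42 for Gpx3, -1.37 for Gpx1, 2.20 for Dpep1 and -0.81 for Hagh. Of the other transferase genes 2 of 7 were tested. Gstp3 was called lower (log2 fold change -1.93, SE 0.56, adjusted p = 0.0429, -1.72 with the covariate), but it too met the minimum mean through Tcell high libraries alone.

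Genes widely described as NRF2 targets fell more often than they rose. Among all genes that averaged at least 10 scaled counts in both groups, 7.28% fell and 5.13% rose. Of the 23 targets among these, 8 fell (34.8%), 1 rose (4.35%) and 14 did not pass, with a median log2 fold change of -0.87. 2 more, G6pdx and Ugt1a6a, were called lower but met the minimum mean through Tcell high libraries alone. Me1, the malic enzyme that makes NADPH, fell (log2 fold change -2.26, SE 0.44, adjusted p = 0.0143), as did Cyp2a5, a coumarin hydroxylase (log2 fold change -2.09, SE 0.44, adjusted p = 0.0184), and Entpd5, a nucleotidase (log2 fold change -1.20, SE 0.29, adjusted p = 0.0248). Me1 and Cyp2a5 are uncertain as single genes, with 26.1% of 3′ words of Me1 (chiefly Gm7049) and 44.4% of those of Cyp2a5 (chiefly Cyp2a4) also in another gene. Idh1, another source of NADPH, fell (log2 fold change -3.32, SE 0.81, adjusted p = 0.0262). The 1 that rose was Hmox1, haem oxygenase, which averaged 135 ± 64.6 scaled counts in Tcell low and 55.3 ± 20.6 in Tcell high livers (SD, n = 4 and 6) (log2 fold change 1.25, SE 0.35, adjusted p = 0.0396). With the library set covariate the log2 fold changes were -2.47 for Me1, -1.20 for Cyp2a5, -1.03 for Entpd5, -2.07 for Idh1 and 0.66 for Hmox1. Of 13 other regulators of the pathway, 1 fell (7.69%) and 0 rose (limma, 3 higher at an unadjusted p below 0.05). The 1 that fell was Nfe2l1, a relative of NRF2 (log2 fold change -0.73, SE 0.20, adjusted p = 0.0378, -0.93 with the covariate).

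Of 16 other antioxidant enzymes tested, 5 fell and 0 rose (limma, 2 higher at an unadjusted p below 0.05), with a median log2 fold change of -0.43. Of the 15 that averaged at least 10 scaled counts in both groups, 5 fell (33.3%), against 7.28% of all genes with that mean in both groups. Sod2, the mitochondrial superoxide dismutase, averaged 259 ± 157 scaled counts in Tcell low and 851 ± 318 in Tcell high livers (SD, n = 4 and 6) and fell (log2 fold change -1.77, SE 0.38, adjusted p = 0.0192). Cat, the peroxisomal catalase, averaged 3815 ± 3284 scaled counts in Tcell low and 10712 ± 2087 in Tcell high livers (SD, n = 4 and 6) and fell (log2 fold change -1.87, SE 0.43, adjusted p = 0.0216). Msrb1, which repairs oxidised methionine, fell (log2 fold change -1.31, SE 0.33, adjusted p = 0.0291), as did the mitochondrial Txnrd2 (log2 fold change -1.44, SE 0.40, adjusted p = 0.0387). The covariate gave -0.98 for Sod2, -1.60 for Cat, -1.13 for Msrb1 and -1.10 for Txnrd2. Of 12 xenobiotic and hepatocyte regulators, limma called 0, with 2 at an unadjusted p below 0.05. The highest means among them were those of Por, the electron donor of cytochrome P450 enzymes, at 8441 ± 6041 scaled counts in Tcell low and 2958 ± 631 in Tcell high livers (SD, n = 4 and 6), and Ppara, a fatty acid sensor, at 1627 ± 448 scaled counts in Tcell low and 2482 ± 497 in Tcell high livers (SD, n = 4 and 6). The 25 genes called in these lists include Gstp3, G6pdx and Ugt1a6a, which met the minimum mean through Tcell high libraries alone. Dpep1, also included, met it through Tcell low libraries alone, so the direction of these calls was fixed. Of all 25, 2 kept their call without Tcell low 2 (Dpep1 and Cyp2a5), 3 without Tcell low 4 (Gpx1, Gpx3 and Me1) and 8 without Tcell low 3. Without Tcell high 3, 7 stayed called, and without Tcell high 1, 5 or 6 in turn 8 did, while leaving out Tcell low 1 or Tcell high 2 lost no call among the 25.

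Some markers of other cells differed between the groups, and their part in the results above was not tested. Of the neutrophil markers 4 were tested and called higher in Tcell low livers, but Ngp and Retnlg met the minimum mean through Tcell low libraries alone. That leaves 2 of 2 rising, where 5.13% of all genes with that mean in both groups rose. The 8 listed neutrophil genes summed to 647 to 1768 scaled counts in Tcell low and 42.6 to 219 in Tcell high libraries. S100a8 averaged 603 ± 287 scaled counts in Tcell low and 44.6 ± 28.1 in Tcell high livers (SD, n = 4 and 6), and none of the 8 was listed at 0 throughout. Pericentral hepatocyte markers, from the zone around the central vein where many transferases are highest, summed to 16164 to 19539.6 in Tcell low and 23673 to 35414 in Tcell high libraries. Of these 8 genes 2 fell, Cyp1a2 and Rhbg, where 7.39% of all genes tested fell, and 6 did not pass. Cyp1a2 weighed heavily in the sum, with 3472 ± 2771 scaled counts in Tcell low and 9574 ± 1406 in Tcell high livers. Glul averaged 4675 ± 1017 scaled counts in Tcell low and 4996 ± 1096 in Tcell high livers (SD, n = 4 and 6). Of 8 general hepatocyte markers 0 fell (limma, 0 also at an unadjusted p below 0.05) and 2 rose, Apoa1 and Apob. Of all genes tested, 5.39% rose.

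Other cell types had between 0 and 2 markers called each. Of all genes tested, 5.39% were called higher and 7.39% lower. 0 of 8 Kupffer cell markers were called (limma, 0 also at an unadjusted p below 0.05), with sums of 5256 to 9064 in Tcell low and 2826 to 11359 in Tcell high libraries. 0 of 4 bile duct markers were called (limma, 1 at an unadjusted p below 0.05), with sums of 214 to 484 in Tcell low and 137 to 267 in Tcell high libraries. Of the T cell markers 2 were tested and 0 called (limma, 0 also at an unadjusted p below 0.05), with sums of 37.5 to 86.6 in Tcell low and 38.1 to 55.4 in Tcell high libraries. Of 8 endothelial markers 2 were higher and 0 lower (limma, 2 higher and 3 lower at an unadjusted p below 0.05), with a median log2 fold change of -0.21. Of 8 stellate cell and fibroblast markers 1 was higher and 0 lower (limma, 1 higher and 2 lower at an unadjusted p below 0.05), with a median of -0.17. Of 4 pancreatic tumour markers tested, 1 was higher and 0 lower (limma, 2 higher and 0 lower at an unadjusted p below 0.05). In each of the endothelial, stellate and tumour lists, 1 tested gene met the minimum mean through Tcell high libraries alone and was not called. Without that gene the median log2 fold change was 0.21 for the endothelial and -0.08 for the stellate cell and fibroblast markers. The called tumour gene was Msln, which averaged 108 ± 57.4 scaled counts in Tcell low and 22.1 ± 8.59 in Tcell high livers (SD, n = 4 and 6). Of all 12 markers called, 2 kept their call without Tcell low 2 and 2 without Tcell low 4, S100a8 among them each time.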

How the data were processed

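Liver RNA was sequenced as 10 libraries with a QuantSeq 3′ FWD kit, per the labels' protocols. STAR, DESeq2 and the mouse build mm10 are named, per the submitters' processing notes, with no versions; read counter and annotation: not given in the sources used here. Deposited values are a signal per gene and library, gene counts that the authors scaled to a common depth, here called scaled counts. Whole reads could not be read back, so the depth is unknown and intervals or floors from counting are left out. The same holds for 0, which is reported as listed at 0.

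Libraries were grouped by their titles. Genes averaging 10 scaled counts or more (11110 of 24972) were tested on log2(scaled count + 1) with limma 3.58.1 in R 4.3.3, with a variance trend, group as the only term, 13.1 degrees of freedom and two-sided p-values adjusted by Benjamini-Hochberg over all genes tested. Calls are at an adjusted p below 0.05, fold changes are Tcell low minus Tcell high, and on this scale they understate the change of low genes. The design named a count test first, which these values did not allow. The test was checked on simulated data with independent noise for each gene and library. That check cannot address shifts shared by many genes of a library.

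The members, gene lists and library set were chosen with earlier results of these data known. All members are named, with up to 4 called genes of lowest adjusted p per pathway list, or the 2 of highest mean where none was called, and at most 2 per marker list; Hmox1, G6pdx, Ugt1a6a, Apoa1, Apob, Rhbg, Ngp and Retnlg were named after their values were seen, to complete counts. Positions are from GENCODE vM21 (mm10). A 3′ end was called shared where at least 20% of the 50-base words of its last 400 bases occur in another gene. Alternatives were other pseudocounts, filters, scalings and thresholds, the robust option, a replicate block, a library set covariate and each library left out. Plots used matplotlib 3.10.9 (Python 3.11.15).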

Additional observations from a re-analysis of the deposited data

Results flagged for a closer look

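5 of 65 groups of values had a library far from the others of its group. The test set its gap to the nearest value against the group's range, where chance gives about 1 in 20. Gap and range were taken on log2(scaled count + 1), so the gaps below are not those of the scaled counts printed beside them. Gsta1 was listed at 0 in Tcell high 2, with a gap of 0.898 of the range to the other Tcell high libraries. Gsta2 was 6.46 scaled counts in Tcell low 4, with a gap of 0.88 of the range. Gstp1 was 219 in Tcell high 6, with a gap of 0.799. Gclc was 1214 in Tcell low 1, above the other Tcell low libraries by 0.891 of the range. Prdx6 was 6406 in Tcell high 5, with a gap of 0.743. Gsta1, Gsta2 and Gstp1 share 3′ sequence with other genes.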

How the results depend on the processing

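The number of genes called (1420) was 285 with a replicate block and 21 without the block, on the first 4 libraries of each group, a setting chosen after seeing the data. It was 0 with the library set covariate, 109 to 3633 with 1 library left out and 2871 at an adjusted p below 0.1. The 12 called transferases became 9 with the block, 0 on the first 4 libraries of each group without the block, 0 with the covariate and 3 to 15 with 1 library left out. The 4 called synthesis and redox genes became 2, 0 and 0 in the same order, and 0 to 6. The 6, called without Tcell low 1, include Gss, which was called higher. The median log2 fold change of the transferases was -0.98 with the covariate and -2.02 to -1.46 with 1 library left out. Whether same-numbered libraries of the groups pair was not settled. Their deviations correlated by 0.10, 0.21, -0.10 and -0.15, and 2 of 4 Tcell low libraries were most like their own number. The block also gave 285 called genes against 21 without it. Of the 18 called members 11 kept their call with the block. All 18 kept it under both other pseudocounts, both rescalings and the robust option, and 17 with no filter. Values changed sign in genes that were not called: -0.86 to 0.13 for Gstp1, -0.35 to 0.30 for Gstt3 and -0.34 to 0.35 for Gclm with 1 library left out, and -0.083 for Gsr with the covariate. The cause was not tested. Depth is unknown, 2 members were too low to test, and without the transferases that share 3′ ends, 9 of 14 transferases were called.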

Other observations

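Tcell high libraries differed among themselves in some of the members. Tcell high 2 and 4 both lay below the other 4 Tcell high libraries in 10 of the 17 members called lower in Tcell low livers and above them in 1, Gstm6. Among all 821 genes called lower, they lay below in 413 (50.3%) and above in 42. They also lay below in members that were not called, such as Gsto1 and Gstt2. They lay above the other 4 in Nfe2l2, with 772 and 687 scaled counts against 413 to 555. Among all 599 genes called higher, they lay above in 228 (38.1%). Prdx1 was 3129.8 and 4819 in Tcell high 2 and 4, against 7974 to 11639 in Tcell high 1, 3, 5 and 6. Mgst1 was 945 and 1214 in Tcell high 2 and 4, against 2899.8 to 5221 in the other 4, and Gsto1 was 173 and 263 against 467 to 571. This split was seen in the values and has no label, so it was not tested.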
